A study of Mus musculus with 6 samples.

Results

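Many mouse genes first entered the databases as full-length cDNA clones from the RIKEN collection and carry names that end in Rik until a function gives them a proper symbol. In the table deposited for muscle satellite cells with and without Dnmt1, 58 of 23420 rows carried such a name, lay on an autosome and had a mean of at least 64 scaled reads over the 6 libraries. These 58 transcripts were chosen by their mean over all 6 libraries, so their levels are a description. The rule names no difference between knockout and control, yet a transcript low in 1 group could reach that mean only through the other group, as A430078G23Rik did. The mean value ranged from 65.5 to 517 with a median of 111, and the rows lay on 17 chromosomes. Of 1958 Rik-named rows in the table, 1857 were autosomal, and 1799 of these fell below the minimum.

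Satellite cells are the stem cells of skeletal muscle, and Dnmt1 is the enzyme that copies DNA methylation onto the new strand after replication. The study compared 3 control samples with 3 samples labelled Dnmt1 KO, all from male C57BL/6 mice of 7 weeks. Per the labels, mice were made from Pax7-CreERT2, which places an inducible Cre recombinase under a satellite cell gene, and Dnmt1 flox alleles, and received tamoxifen or vehicle on 5 days. The labels leave unsaid which group received which agent, whether the control mice had the Cre transgene, and whether each library stands for its own mouse or culture. The p-values therefore reflect only how these libraries vary, and some of that variation may be technical.

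The libraries held 954786 to 2021725 reads, and a value below is a read count multiplied by 1 factor per library, here called a scaled read count. Dnmt1 itself was at 614, 539 and 655 across control replicates 1, 2 and 3, against 74.6, 36.1 and 81.2 across the knockouts (log2 fold change -3.29, SE 0.27, adjusted p = 0.00121, limma). Of 9 satellite cell markers, 9 were high enough to test and 1, Pax7, fell, from 115 ± 13.6 to 63.1 ± 4.32 (SD, n = 3 each; adjusted p = 0.0441, limma). Myf5, at 347 ± 114 and 200.3 ± 48.0, and Myod1, at 1563 ± 129 and 1233 ± 150.4, also had every knockout below every control without passing. The rest had overlapping groups and did not pass. Of these, Des was at 1270 ± 517 in controls and 2327 ± 716 in knockouts. Cdh15 (means of 154 in controls and 242 in knockouts), Sdc4 (194 and 232) and Itga7 (931 and 982) were also higher in knockouts. Vcam1 (199 and 172) and Chrdl2 (4.22 and 2.58) were lower. The sum over all 9 was 4350 to 5610 in controls and 4563 to 5933 in knockouts. Of 8 macrophage and blood markers 3 could be tested and 1 rose (Laptm5), while Ptprc, Adgre1 and Tyrobp were at 0 in all libraries. Their summed level was 21.9 to 36.1 in controls and 77.5 to 188 in knockouts, most of it Laptm5 (means of 25.3 and 106). Cd68 (means of 1.66 in controls and 6.25 in knockouts) and Cd14 (0 and 2.86) had every knockout above every control without passing. Csf1r (0.230 and 0) and Lyz2 (0.461 and 0.669) had overlapping groups and were too low to test. Of 8 markers of fibro-adipogenic progenitors 5 could be tested and 2 rose (Col1a1 and Gsn), while Lum and Dpt were at 0 in all libraries. Pdgfra (means of 4.94 in controls and 5.28 in knockouts) and Ly6a (5.04 and 10.1) had overlapping groups. The summed level was 374 to 693 in controls and 690.4 to 1130 in knockouts, most of it Col3a1 and Gsn. Of 7 endothelial markers 3 could be tested and 0 passed, with sums of 2.86 to 16.1 in controls and 3.69 to 11.5 in knockouts. Contractile genes were uneven within both groups, with a summed level of 1692, 16115 and 1169 in controls against 7355, 7279 and 2517 in knockouts. The part of these cells or states in the results below was not tested. In bulk RNA, fewer cells of a type and less RNA per cell cannot be told apart.

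All 58 names were found in the RefSeq gene table for GRCm38.p6, the build that corresponds to mm10. RefSeq now lists 38 of them under another symbol and 20 still under the Rik name. By RefSeq gene type, 53 were protein-coding, 4 were long non-coding RNAs and 1 was a transcribed pseudogene. Exon lengths ran from 365 to 15883 bases with a median of 3962. Per kilobase of exon, the mean level ran from 8.32 to 180 with a median of 36.7. The highest per kilobase was 2010107E04Rik, now Atp5mpl, a small subunit of the mitochondrial ATP synthase, at 180. The lowest were 2410089E03Rik, now Cplane1, a gene of cilium formation, at 8.32 and 4932438A13Rik at 8.34. 4932438A13Rik, still Rik-named in RefSeq for GRCm38.p6, had the greatest summed exon length of the members.

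Most of these transcripts differed little between the groups, and 3 of 58 rose in the knockout. They were A430078G23Rik, 2810474O19Rik and 4933426M11Rik, and 0 fell by limma over all 12591 genes tested. The 3 rises were 5.17% of the members. Over all genes tested 1.67% were called higher and 0.0953% lower, and among the 4458 autosomal rows with a mean of at least 64, 1.64% were called higher and 0.202% lower. Whether the members' share of rises differs from that background was not tested. At an unadjusted p under 0.05 there were 5 higher and 3 lower members, 13.8% of the members against 16.6% of the 4458 rows. On 4 libraries, 2 per group with control replicate 2 included, edgeR and DESeq2 each called 1 member higher, A430078G23Rik, and 0 lower. The members' median log2 fold change was -0.04, that of the 4458 rows was -0.06, and 50 members (86.2%) lay within 0.5 of 0 on the log2 scale, against 87.3% of the 4458. Every knockout value lay above every control value for 9 members (15.5%), where the background was 10.5%, and below for 4 members (6.90%), where it was 12.0%. With each of the 6 libraries left out in turn, A430078G23Rik was called every time, while in those fits the other 2 were called only without control replicate 2.

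**Figure D1:**
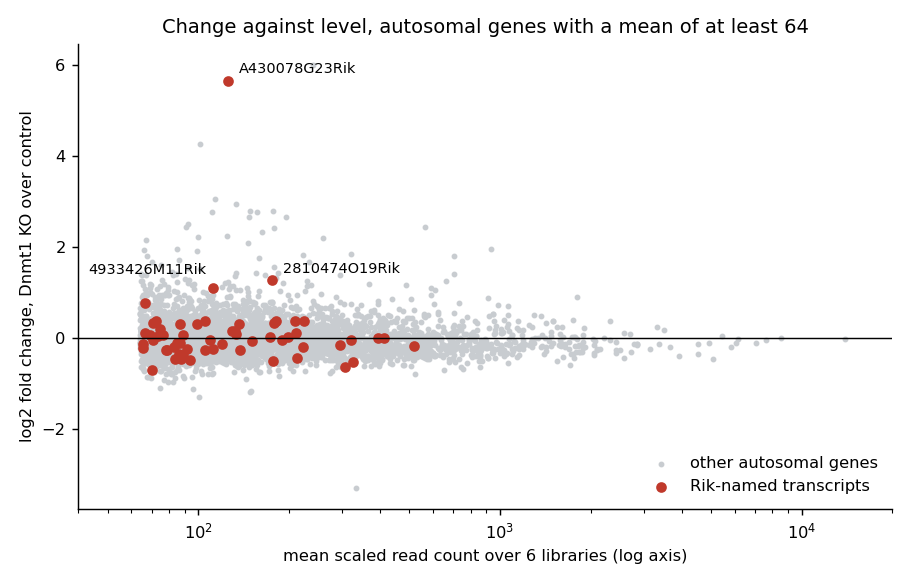
The log2 fold change of Dnmt1 KO over control (vertical axis) is plotted against the mean scaled read count of the 6 libraries (horizontal log axis) for the 4458 autosomal rows with a mean of at least 64; grey points are other genes and red points the 58 Rik-named transcripts. A430078G23Rik lies far above the rest of the red points at 5.65, followed by 2810474O19Rik at 1.27 and 4933426M11Rik at 1.09, while most others lie within 0.5 of 0.

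**Figure D2:**
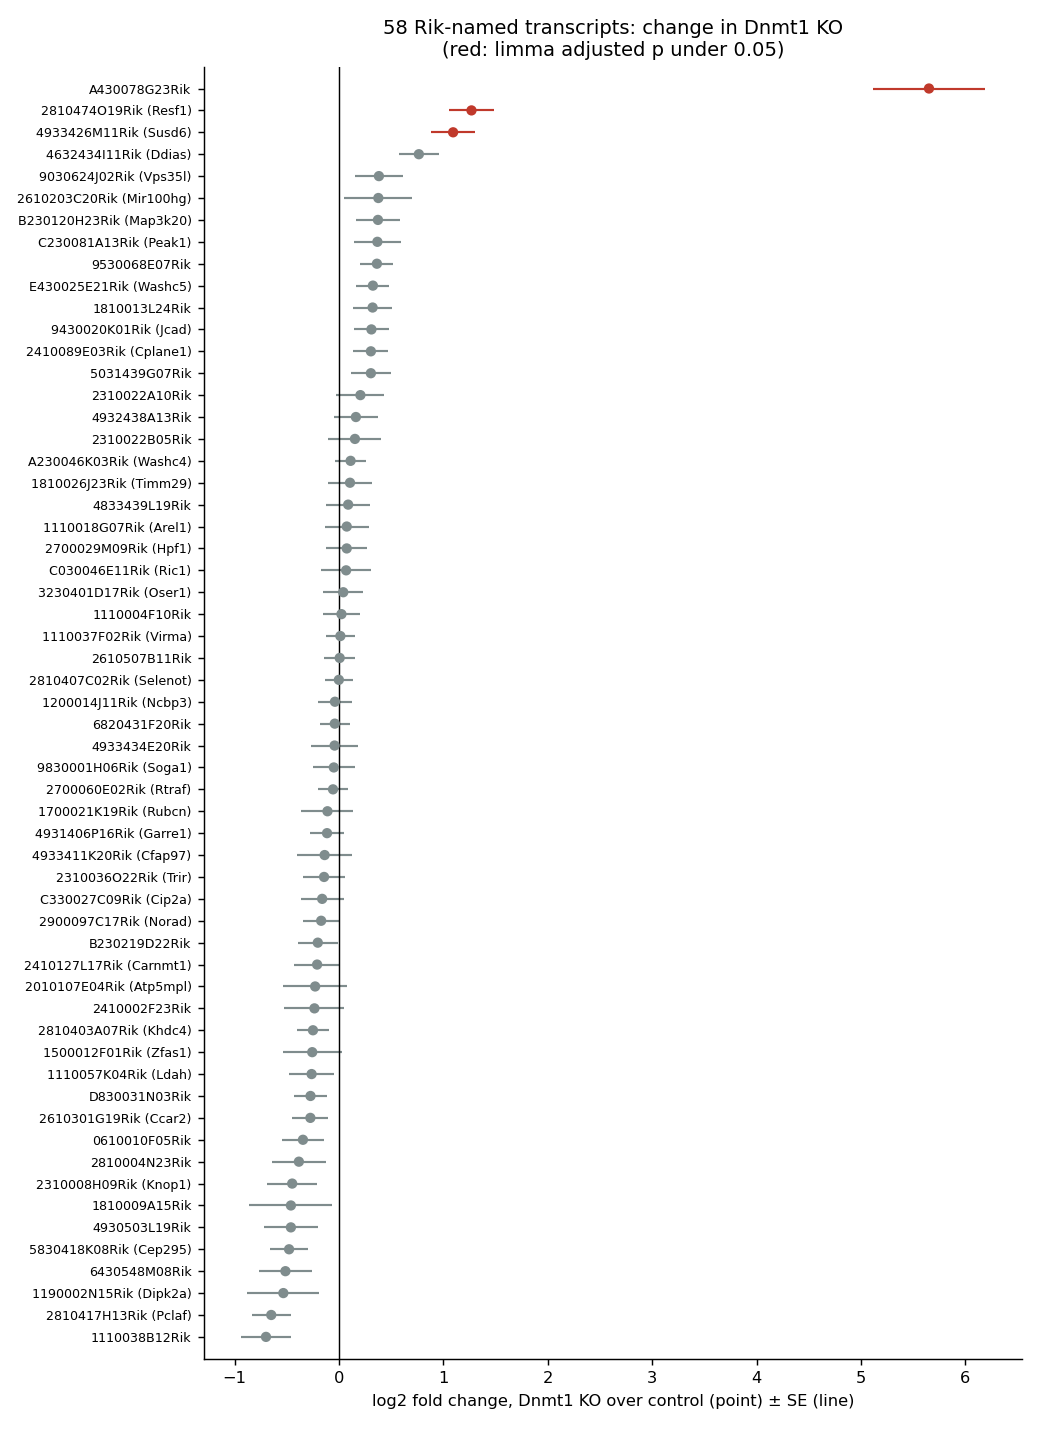
The log2 fold change of each of the 58 transcripts is shown as a point with its SE as a line, ordered from highest to lowest, with the current RefSeq symbol in brackets where it differs. The 3 red points are those with a limma adjusted p under 0.05, and the lowest point is 1110038B12Rik at -0.70.

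The members near the minimum show how the rule drew its line. Just inside were 1810026J23Rik (Timm29, a part of the import machinery of the inner mitochondrial membrane) at a mean of 66.3, 2010107E04Rik (Atp5mpl) at 65.7 and 4933411K20Rik (Cfap97) at 65.5. Just outside were 1200011I18Rik (Gpalpp1) at 63.3, 9030617O03Rik (Dglucy) at 62.9 and 2610001J05Rik at 61.7. For 50 members both group means reached 64, and 2 of these 50 rose. For 5 members the control mean lay under 64, A430078G23Rik and 4632434I11Rik among them. For 3 members the knockout mean lay under 64, 1110038B12Rik among them. These 8 entered the list through 1 group, so A430078G23Rik, with a control mean of 3.61, had to differ in order to be a member at all. The X-linked Rik-named row C330007P06Rik also reached the minimum but was not on an autosome, at 75.4 ± 3.16 in controls and 64.1 ± 7.80 in knockouts (SD, n = 3 each).

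A430078G23Rik showed the largest change of the 58 transcripts. It was counted over 11 exons on chromosome 8 at 3353415 to 3390299 (mm10, plus strand, 2967 exon bases), immediately upstream of the row for Arhgef18, which encodes an activator of the small GTPase RhoA that shapes the actin cytoskeleton at cell junctions. RefSeq holds both rows as 1 gene, Arhgef18, with a start site for each. Its scaled read count was 2.01, 1.90 and 6.91 in control replicates 1, 2 and 3, against 159, 465 and 117 in the knockout replicates of those numbers. The groups were far apart, and knockout replicate 2 stood above the other knockouts. The controls rest on 2, 2 and 10 reads and the knockouts on 111, 463 and 95. The mean was 3.61 ± 2.86 in controls and 247 ± 190 in knockouts (SD, n = 3 each), a ratio of 68.4. It rose by 5.65 on the log2 scale (SE 0.54, adjusted p = 0.00152, limma), which ranked 2 of the 4458 autosomal rows at this level. With 1 library left out it stayed between 5.07 and 6.13. In the authors' deposited table the q-value of this row was 4.22e-19. A share of 2.88% of its 50-base words occur in transcripts of other genes.

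The downstream row of the same RefSeq gene changed far less and was not called. Arhgef18, at 3393008 to 3456600 on the same strand, had values of 28.1, 29.5 and 35.3 in controls against 27.2, 56.2 and 43.1 in knockouts. These groups overlapped, and the fitted change was 0.38 in log2 units (SE 0.29, adjusted p = 0.565, limma). Per kilobase of exon, the upstream row stood at 0.676, 0.642 and 2.33 in the controls, below the downstream row at 5.30, 5.57 and 6.65. In the knockouts the order turned. The upstream row stood at 53.6, 157 and 39.4 per kilobase and the downstream row at 5.14, 10.6 and 8.13, a ratio of 10.4, 14.8 and 4.85. Within 100000 bases, 0 of the 3 other rows tested, Arhgef18 included, were called, and Insr, the insulin receptor gene on the other side, was at -0.07 on the log2 scale (adjusted p = 0.914, limma). The values count whole rows, so where within the upstream row transcription began cannot be read from them.

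**Figure D3:**
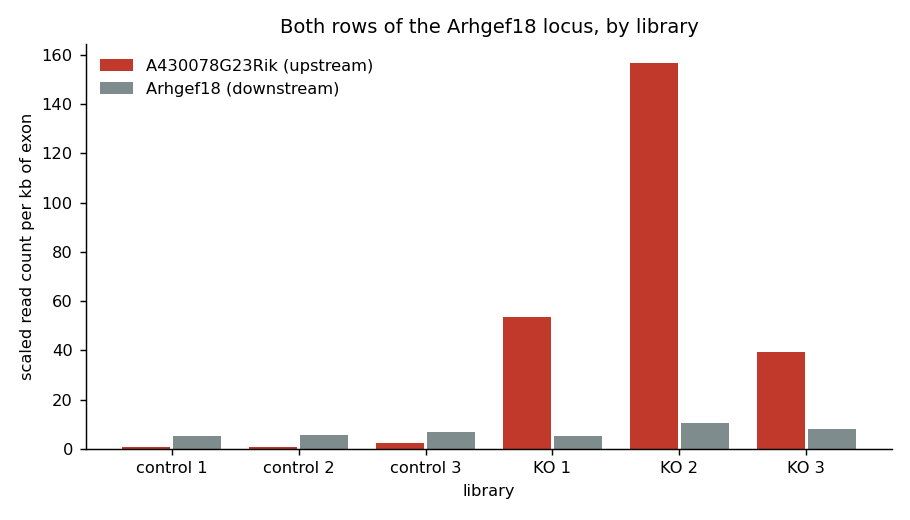
Scaled read counts per kilobase of exon (vertical axis) are drawn for each of the 6 libraries, with a red bar for A430078G23Rik and a grey bar for the downstream row Arhgef18. The red bars reach at most 2.33 in the controls and between 39.4 and 157 in the knockouts, while the grey bars lie between 5.14 and 10.6 throughout.

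The promoter windows of the 3 transcripts that rose are shown with every CpG in capitals. CpG is the type of site at which Dnmt1 maintains methylation, but whether these CpGs were methylated cannot be read from RNA values. The window at the start of the downstream Arhgef18 row is set beside that of A430078G23Rik. The windows are from RefSeq (GRCm38.p6), 250 bases before and 50 after an annotated start, all on the plus strand. The coordinates are chr8:3353187-3353486, chr8:3392758-3393057, chr6:149309164-149309463 and chr12:80790282-80790581 in the order given.
A430078G23Rik start: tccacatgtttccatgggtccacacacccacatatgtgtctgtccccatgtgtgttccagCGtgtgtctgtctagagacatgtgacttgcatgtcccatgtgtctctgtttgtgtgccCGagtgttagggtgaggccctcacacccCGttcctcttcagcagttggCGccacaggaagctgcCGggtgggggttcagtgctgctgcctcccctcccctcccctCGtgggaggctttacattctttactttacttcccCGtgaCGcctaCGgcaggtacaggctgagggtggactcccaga
Arhgef18 row start: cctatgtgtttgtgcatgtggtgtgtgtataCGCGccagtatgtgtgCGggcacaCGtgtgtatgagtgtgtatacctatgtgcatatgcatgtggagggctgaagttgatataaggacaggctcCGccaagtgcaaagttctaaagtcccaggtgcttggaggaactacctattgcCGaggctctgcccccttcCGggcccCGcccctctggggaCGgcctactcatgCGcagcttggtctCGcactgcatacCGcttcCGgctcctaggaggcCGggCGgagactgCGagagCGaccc
2810474O19Rik (Resf1) start: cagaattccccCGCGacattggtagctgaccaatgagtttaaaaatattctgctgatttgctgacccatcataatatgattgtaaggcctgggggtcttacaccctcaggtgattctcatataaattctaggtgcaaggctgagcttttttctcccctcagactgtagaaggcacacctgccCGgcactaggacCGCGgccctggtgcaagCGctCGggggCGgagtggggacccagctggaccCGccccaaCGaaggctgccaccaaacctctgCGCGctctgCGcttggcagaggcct
4933426M11Rik (Susd6) start: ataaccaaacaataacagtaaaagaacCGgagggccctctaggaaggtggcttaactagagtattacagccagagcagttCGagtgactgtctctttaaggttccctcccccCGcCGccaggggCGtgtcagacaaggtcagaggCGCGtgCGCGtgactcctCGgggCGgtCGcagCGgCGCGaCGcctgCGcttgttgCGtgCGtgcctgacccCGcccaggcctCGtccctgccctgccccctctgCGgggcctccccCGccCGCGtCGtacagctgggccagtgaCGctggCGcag

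These windows held 9, 17, 13 and 28 CpGs. A430078G23Rik thus had fewer CpGs at its start than the downstream start of the same gene, and 4933426M11Rik had the most of the 4. The observed-to-expected CpG ratio was 0.363 for A430078G23Rik, 0.67 for the Arhgef18 row, 0.554 for 2810474O19Rik and 0.877 for 4933426M11Rik. A RefSeq window was at hand for 45 of the 58 members. For 43 of these it lay within 23 bases of the start of the counted row, while the nearest window of 2610203C20Rik (Mir100hg) lay 106446 bases and that of 1110018G07Rik (Arel1) 23963 bases from it, so these 2 windows do not describe the counted starts. Over the 43 windows the median was 27 CpGs, against 7 over all 32851 windows, which include those of genes that are silent in these cells. At least 10 CpGs were present in 42 of the 43 (97.7%), and in 43.5% of all windows. The window of A430078G23Rik was the remaining 1 of the 43.

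Short motifs that contain a CpG were searched in these windows on both strands. The GC box GGGCGG was in 30 of the 43 member windows (69.8%) and in 35.7% of all windows. All windows again include those of silent genes, and no share was computed for the other autosomal rows at this level. It was present at the starts of 2810474O19Rik, 4933426M11Rik and the Arhgef18 row and not in the window of A430078G23Rik. The E-box CACGTG was in 7 member windows (16.3%) and in 7.15% of all, and the cyclic AMP response element TGACGTCA in 2 (4.65%) and in 1.79% of all. None of the 3 members that rose held either of the latter motifs, whereas the Arhgef18 row start held CACGTG.

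Among members that act on chromatin and genome stability, 1 of 4 rose. 2810474O19Rik, now Resf1, is known from mouse embryonic stem cells as a factor that helps the histone methyltransferase Setdb1 to silence endogenous retroviruses. It lies on chromosome 6 at 149309414 to 149335663 and had values of 78.2, 143 and 92.7 in controls against 248, 266 and 224 in knockouts. The groups did not overlap, and control replicate 2 was the highest control. The mean rose from 105 ± 33.9 to 246 ± 21.0 (SD, n = 3 each; log2 fold change 1.27, SE 0.22, adjusted p = 0.0218, limma). Without control replicate 2 the adjusted p was 0.000198, and without any 1 of the other 5 libraries it lay between 0.0668 and 0.125, with log2 fold changes of 1.09 to 1.33 (limma). On 4 libraries (2 per group, control replicate 2 included) 2810474O19Rik did not pass, with an adjusted p of 0.390 by edgeR and 0.534 by DESeq2. In the authors' deposited table its q-value was 0.000612.

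4632434I11Rik, now Ddias, encodes a protein described in human cells as a suppressor of apoptosis after DNA damage. Its values were 51.2, 44.8 and 51.2 in controls against 81.7, 74.2 and 97.2 in knockouts. These did not overlap, but the gene did not pass the test (log2 fold change 0.77, SE 0.19, adjusted p = 0.0862, limma). With the replicate number as a block it passed, with an adjusted p of 0.0486 (limma). Prcp, a peptidase gene read in the opposite direction 1021 bases away, had values of 29.1, 35.2 and 36.6 in controls against 47.3, 58.2 and 66.5 in knockouts, also without overlap and also short of the threshold (log2 fold change 0.74, adjusted p = 0.146, limma). 2700029M09Rik, now Hpf1, which directs ADP-ribosylation to serine at sites of DNA damage, was at 0.07 on the log2 scale (adjusted p = 0.885, limma). 2610301G19Rik, now Ccar2, an inhibitor of the deacetylase Sirt1, was at -0.27 (adjusted p = 0.488, limma).

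4933426M11Rik, now Susd6, is a gene that the tumour suppressor p53 is known to induce. It lies on chromosome 12 at 80790532 to 80880833, and its values were 64.2, 87.6 and 61.5 in controls against 139, 190 and 130 in knockouts. The lowest knockout was above the highest control. The mean rose from 71.1 ± 14.3 to 153 ± 31.97 (SD, n = 3 each; log2 fold change 1.09, SE 0.21, adjusted p = 0.0353, limma). As for 2810474O19Rik, leaving out control replicate 2 lowered the adjusted p, to 0.00291, and leaving out any other library ended the call, with adjusted p of 0.0746 to 0.159 (limma). On 4 libraries (2 per group, control replicate 2 included) 4933426M11Rik passed neither by edgeR (adjusted p = 0.580) nor by DESeq2. In the authors' deposited table the q-value was 0.00432. Those 3 rows were the only members with a q-value under 0.05 there.

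**Figure D4:**
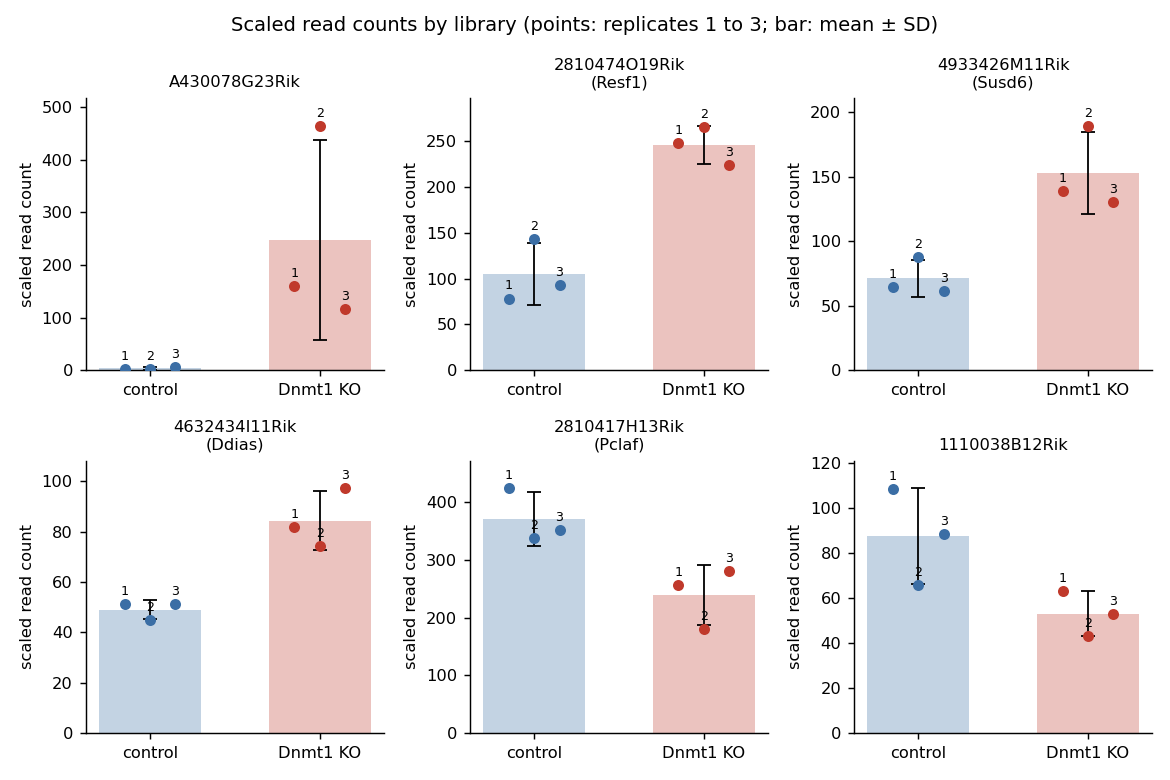
Scaled read counts (vertical axis, from 0) of 6 Rik-named transcripts are shown for control (blue) and Dnmt1 KO (red), each numbered point being 1 library, the bar the mean and the whisker ± SD (n = 3). The groups do not overlap in any of the 6 panels, and the upper row holds the 3 transcripts that passed the test.

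The 3 members with a role in cell division had negative log2 fold changes, as did 2575 of the 4458 autosomal rows at this level, and 0 passed. 2810417H13Rik, now Pclaf, binds the replication clamp PCNA, and in frog egg extracts and mouse embryonic stem cells its ubiquitinated form helps to bring Dnmt1 to replicating DNA. Its values were 424, 338 and 351 in controls against 257, 181 and 281 in knockouts. The groups did not overlap, and knockout replicate 2 was the lowest of all. The mean was 371 ± 46.5 in controls and 239 ± 52.2 in knockouts (SD, n = 3 each; log2 fold change -0.65, SE 0.19, adjusted p = 0.135, limma). It passed without control replicate 2 (adjusted p = 0.0485) and with the replicate block (adjusted p = 0.0384, limma). The summed level of 13 markers of dividing cells was 7158, 6360 and 7543 in controls against 6119, 4523 and 6583 in knockouts, lowest in the same library, and 0 of the 13 passed. Their part in the Pclaf values was not tested. 5830418K08Rik, now Cep295, a centriole protein, had values of 97.3, 101 and 131 in controls against 68.8, 79.3 and 86.1 in knockouts (log2 fold change -0.48, SE 0.18, adjusted p = 0.249, limma). C330027C09Rik, now Cip2a, an inhibitor of the phosphatase PP2A that tumours often overexpress, had overlapping groups (log2 fold change -0.16, adjusted p = 0.747, limma). Its change was above 0 without knockout replicate 2 (0.042), with edgeR (0.035) and with DESeq2 (0.040).

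None of the 5 members that are not protein-coding passed, with a median log2 fold change of -0.17, and 1 had an unadjusted p under 0.05. That was 1110038B12Rik, a long non-coding RNA on chromosome 17 whose span holds the small nucleolar RNA gene Snord52. Its values were 108, 65.7 and 88.5 in controls against 63.1, 43.1 and 52.9 in knockouts. The lowest control, replicate 2, was just above the highest knockout. Its knockout mean lay under 64, so this RNA had to be higher in the controls to be a member at all. The mean was 87.5 ± 21.3 in controls and 53.05 ± 9.97 in knockouts (SD, n = 3 each; log2 fold change -0.70, SE 0.24, adjusted p = 0.190, limma), the most negative of the 58, and it passed without control replicate 2 (adjusted p = 0.0381, limma). 2900097C17Rik, now Norad, an abundant RNA that sequesters Pumilio proteins, had the highest mean of the members, 548 ± 92.6 in controls and 486 ± 78.4 in knockouts (SD, n = 3 each; log2 fold change -0.17, adjusted p = 0.680, limma). Transcripts under other gene names contain 39.5% of its 50-base words, while no other counted row overlapped its exons. What this does to its count was not tested. 1500012F01Rik, now Zfas1, which also hosts small nucleolar RNAs, was at -0.26 on the log2 scale (adjusted p = 0.705, limma). 2610203C20Rik, now Mir100hg, the host of a microRNA cluster, was at 0.38 (adjusted p = 0.616, limma), and the transcribed pseudogene 6820431F20Rik was at -0.04 (adjusted p = 0.922, limma).

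A list of 48 named long non-coding RNAs set these in context, of which 43 had a row, 40 could be tested and 2 (Norad and Zfas1) were members. Of the 40, 0 passed by limma in either direction, and the median log2 fold change was -0.12. Gas5, a host of small nucleolar RNAs, had 374, 260 and 366 in controls against 275, 183 and 260 in knockouts (log2 fold change -0.48, adjusted p = 0.293, limma). Snhg1, another such host, had 133, 86.7 and 115 in controls against 81.7, 59.2 and 80.0 in knockouts (log2 fold change -0.59, adjusted p = 0.224, limma). As in 1110038B12Rik, replicate 2 was the lowest library of both groups in Gas5 and Snhg1, which were named after their values were seen. That held for 15 of the 40 tested RNAs, whereas Snhg14, for example, was highest in replicate 2 of both groups, at 80.0 in the controls and 48.2 in the knockouts.

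Among the members, differences between libraries of a group varied with exon length. The 5 members shorter than 1000 bases were 2310036O22Rik, 1810009A15Rik, 1500012F01Rik, 1110038B12Rik and 2010107E04Rik. In both groups, replicate 2 of each lay below the log2 mean of the other 2 libraries, by 0.22 to 1.43. For 2310036O22Rik, knockout replicates 2 and 3 were level, at 97.3 and 97.2. Over the 58 members, Spearman's rho between exon length and a library's log2 difference from the other 2 of its group was -0.49, 0.38 and -0.08 for control replicates 1, 2 and 3 and -0.57, 0.33 and 0.17 for knockout replicates 1, 2 and 3. The same values over the 4458 autosomal rows were -0.44, 0.32 and -0.02 for the controls and -0.51, 0.35 and 0.12 for the knockouts, so the members follow the whole table. Between the groups, rho of length with the log2 fold change was 0.25 over the members and 0.07 over the 4458 rows. These are descriptions across transcripts of the same 6 libraries, and the part of length in the lower values of short transcripts was not tested.

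**Figure D5:**
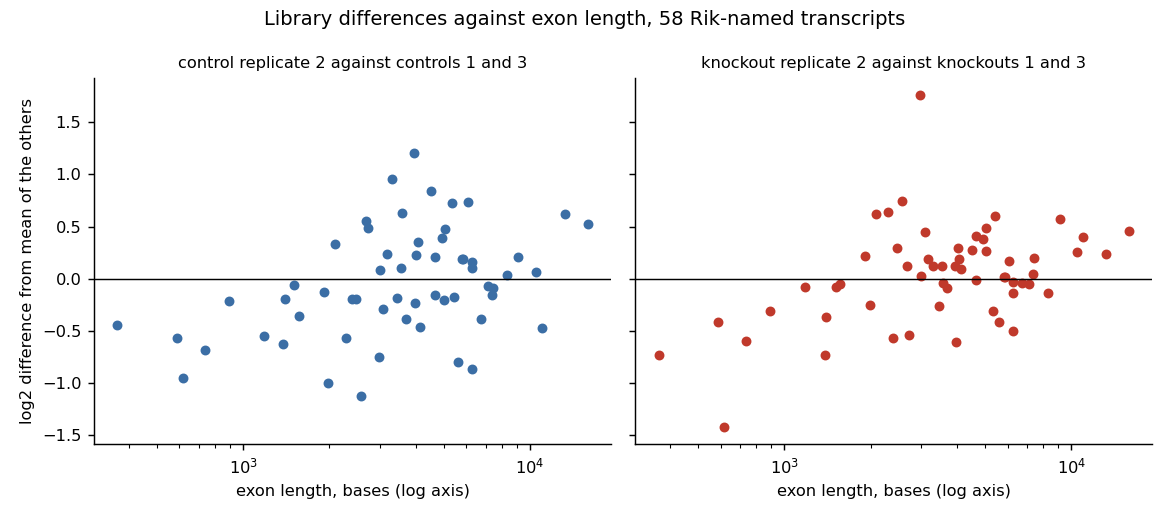
Each point is 1 of the 58 transcripts, with exon length in bases on the horizontal log axis and the log2 difference of replicate 2 from the mean of the other libraries of its group on the vertical axis, for the controls (left) and the knockouts (right). The 5 transcripts shorter than 1000 bases lie below 0 in both panels.

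In the remaining groups, only A430078G23Rik passed. Of 5 members of signalling and the cytoskeleton, C230081A13Rik (Peak1, a pseudokinase of the actin cytoskeleton) and B230120H23Rik (Map3k20, a kinase of the stress response that acts in muscle) were both at 0.37 on the log2 scale (adjusted p of 0.476 and 0.430, limma), and 9430020K01Rik (Jcad) was at 0.31 (adjusted p = 0.413, limma). RNA processing was level, with 5 members between -0.25 and 0.01 on the log2 scale. Among these, 1110037F02Rik (Virma, a scaffold of the enzyme that methylates adenosine in mRNA) was at 198 ± 5.66 in controls and 199.7 ± 15.04 in knockouts (SD, n = 3 each), and 2810403A07Rik (Khdc4) had 113, 127 and 126 in controls against 94.6, 103 and 109.5 in knockouts, without overlap (log2 fold change -0.25, adjusted p = 0.482, limma). Of 5 members of endosomes, the Golgi and autophagy, E430025E21Rik (Washc5, of the WASH complex that builds actin on endosomes) had 152, 175 and 146 in controls against 194, 226 and 176 in knockouts, barely apart (log2 fold change 0.32, adjusted p = 0.367, limma). Its partner A230046K03Rik (Washc4) was at 0.11 on the log2 scale (adjusted p = 0.754, limma). The 2 mitochondrial members, Timm29 and Atp5mpl, had log2 fold changes of 0.11 and -0.23, and the 2 of cilia, Cplane1 and Cfap97, 0.31 and -0.14. None of these 18 others had an unadjusted p under 0.05.

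Of the 18 protein-coding members that RefSeq still lists under a Rik name, 0 passed by limma, by edgeR or by DESeq2, and 1 had an unadjusted p under 0.05. That was 9530068E07Rik, with 210, 178 and 198 in controls against 254, 288 and 217 in knockouts (log2 fold change 0.36, SE 0.16, adjusted p = 0.303, limma). The most abundant of them, 2610507B11Rik, was at 393 ± 29.2 and 396 ± 45.1 (SD, n = 3 each). 2810407C02Rik, renamed Selenot after the selenoprotein of the endoplasmic reticulum that it encodes, was as even, at 411 ± 17.1 in controls and 411 ± 21.1 in knockouts. 1190002N15Rik (Dipk2a) was uneven, with 301, 631 and 248 in controls against 343, 264 and 171 in knockouts, control replicate 2 standing far above the others (log2 fold change -0.53, SE 0.34, adjusted p = 0.498, limma). Across the 58, control replicate 2 was the highest control for 24 members and the lowest for 29. Without it, 6430548M08Rik (-0.80, adjusted p = 0.0260) and 2310008H09Rik (Knop1; -0.72, adjusted p = 0.0372, limma) also passed as lower.

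Outside the list, 482 other Rik-named rows could be tested, and 5 of them rose and 0 fell by limma. The rises were 1.04% of these rows, against 1.67% of all genes tested. With an unadjusted p under 0.05 there were 34 higher and 14 lower, 9.96% of these rows. Over all genes tested the same limit gave 1352 higher and 604 lower, 15.5%. 9030617O03Rik, now Dglucy, a mitochondrial enzyme that acts on D-glutamate, lay just outside the list with 26.1, 38.1 and 30.4 in controls against 105, 98.3 and 80.0 in knockouts (log2 fold change 1.56, SE 0.22, adjusted p = 0.00936, limma). 4933409K07Rik was at 0 in all controls, whereas the knockouts had 12.9, 53.2 and 11.1. The X-linked 4930550L24Rik was likewise at 0 in the controls, and the knockouts had 7.17, 22.1 and 3.69. For both, the filter on low values was passed only through the knockouts, so their direction was fixed by it. 6430531B16Rik (Spef1l) went from 0.986 ± 1.00 to 17.7 ± 6.05 (SD, n = 3 each). 4930500J02Rik (Platr14, a long non-coding RNA first described in embryonic stem cells) went from 0.778 ± 0.708 to 10.5 ± 5.91 (SD, n = 3 each). Their controls were at 2.01, 0.952 and 0 and at 0, 0.952 and 1.38. These rows too could pass the filter only with the knockouts, so their rises carry a like limit.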

How the data were processed

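RNA of satellite cells was sequenced from a strand-preserving kit, per the labels' protocols. Reads were aligned with TopHat to mm10 and counted with featureCounts, per the submitters' processing notes; their versions, annotation, strand setting and scaling method were not stated there. The deposited sample columns hold a signal, the read count multiplied by 1 factor per library: in each library every value was a whole multiple, within 0.001, of what 1 read is worth. The p-value and q-value columns in the authors' deposited table are the authors' own test. The members and lists were chosen with earlier results of these data known.

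Values were transformed as log2(value + 1), a row needed a value of 1 or more in 3 or more libraries, and limma 3.58.1 compared the groups (R 4.3.3, intensity trend, Benjamini-Hochberg over all 12591 rows, threshold 0.05). The pseudocount makes fold changes of low rows too small. The code was tested on simulated data. edgeR 4.0.16 and DESeq2 1.42.0 were run on whole reads of 4 libraries (control replicates 2 and 3, knockout replicates 1 and 3), 2 per group. Their factors were 0.952, 0.691, 1.43 and 1.23. The other 2 libraries, with factors of 1.003, also gave whole multiples, so their values did not force their omission. They were left out of these count tests only, and count tests on all 6 libraries were not run. Named members were those past the threshold, up to 6 of the highest and 6 of the lowest fold changes among members whose groups do not overlap (only 4 were lower), the 4 highest means, those nearest the minimum and those with a known role in the cell cycle, chromatin or muscle. Others were named after their values were seen, and the role groups were likewise drawn up then. Words of 50 bases came from GENCODE M21 transcripts; 56 members had them, 9 shared at least 10% with other genes, and 7 overlapped exons of a row on the opposite strand, whose reads cannot be told apart if strand was not used. Intervals and floors were not needed, and precision is set by the 3 libraries a group.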

Additional observations from a re-analysis of the deposited data

How the results depend on the processing

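Over all genes, 222 calls became 127 with a pseudocount of 0.1, 14 with edgeR and 41 with DESeq2 on 4 libraries, and 13 to 773 with 1 library left out. The count of members called higher, 3, fell to 1 (A430078G23Rik) without an intensity trend, with edgeR and with DESeq2, and to 1 (2810474O19Rik) among the 25 members left by the higher membership minimum, which A430078G23Rik did not reach, and lay between 1 and 3 with 1 library left out; members called lower lay between 0 and 4. The median log2 fold change of the members was 0.0069 at that higher minimum. A minimum of 32 gave 4 rises and 0 falls. A430078G23Rik was called in all 16 other settings, 2810474O19Rik in 8 and 4933426M11Rik in 7. With a pseudocount of 0.1 the adjusted p of 4933426M11Rik was 0.0512 (limma). The 3 rescalings moved the median of all genes to between -0.0046 and 0.055 and changed none of the members' calls.

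With the replicate number as a block, 435 genes were called, and among members 4 were higher and 1 lower. Same-numbered libraries had correlations of deviations of -0.06, 0.22 and 0.31 for replicates 1, 2 and 3. Replicates 2 and 3 of each group correlated best with their own number, and replicate 1 of each group did not. No label says that the numbers pair the samples, and these correlations cannot decide it.

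Changes of sign concerned only members that were not called. 2610507B11Rik was at -0.018 with median-of-ratios scaling, -0.021 with TMM, -0.12 with edgeR and -0.11 with DESeq2, and at -0.060 to 0.10 with 1 library left out. 2810407C02Rik was at 0.033 with equal totals and at -0.042 to 0.032 with 1 library left out. 2010107E04Rik was at 0.28 with edgeR and 0.28 with DESeq2 and at -0.52 to 0.026 with 1 library left out. C330027C09Rik was at 0.035 with edgeR, 0.040 with DESeq2 and -0.37 to 0.042 with 1 library left out. With 1 library left out, 4933411K20Rik lay between -0.37 and 0.14, 2700029M09Rik between -0.11 and 0.17 and 1810026J23Rik between -0.012 and 0.28. The cause was not tested.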
